A study of Mus musculus with 24 samples.

Results

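Cultured endothelium and cultured stroma from mouse bone marrow were compared across all genes in 6 of the 24 libraries of the series: 3 of cultured endothelium (BMEC-Akt1, replicates 1 to 3) and 3 of cultured stroma (BMS-Akt1, replicates 1 to 3). The members were chosen by their titles, as the cultured libraries that carry no co-culture mark. All mice are labelled C57BL/6J, both groups are labelled in vitro, and both carry Akt1 in the title, which the labels do not explain. Age, passage, medium and sorting are not given, and the labels do not say if each replicate was its own culture or animal, so that p-values speak only of the spread among these libraries, part of which may be technical. The other 18 libraries hold the same 2 cell types in a co-culture series, alone or with hematopoietic cells, and in vivo, in a study that its title places at the arteriolar niche of hematopoietic stem cells.

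Marrow endothelium lines arterioles and sinusoids, and arteriolar and sinusoidal cells are told apart by the connexins, Notch ligands and scavenger receptors that they make. Marrow stroma is the mesenchyme between vessels. It makes collagen-rich matrix, can give rise to bone, cartilage and fat, and wraps vessels as pericytes. The layers signal to one another through pairs in which one cell makes the ligand and its neighbour the receptor, and both are known as sources of factors that hold and feed hematopoietic stem cells. Akt1 is a kinase of the phosphoinositide 3-kinase pathway that carries survival and growth signals in endothelium.

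Levels are FPKM, fragments per kilobase of transcript scaled to the mapped fragments of the library, as deposited, and are given for replicates 1, 2 and 3 in that order. Differences are endothelium minus stroma on the log2(FPKM + 1) scale with their standard error (SE). They understate the change of genes with low values. A gene was tested when it reached 1 FPKM in at least 3 of the 6 libraries, and was called when its p in limma's moderated test, adjusted by Benjamini-Hochberg over the 13259 genes tested, was under 0.05. Exact zeros need care, since 4 of 80 ribosomal protein symbols were listed at 0 in at least 1 of the 6 libraries. A gene that is listed at 0 throughout a group is therefore given no fold. In these bulk libraries fewer cells of a kind and less RNA per cell cannot be told apart.

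The 6 libraries summed to between 1421447 and 1808592 FPKM, and listed between 12548 and 13135 genes at 1 FPKM or more. Read depth is unknown. Cell type separated the libraries along the first principal component, which held 71.8% of the variance, and correlations between libraries of different cell type ran between 0.642 and 0.746. Within the groups, endothelial libraries correlated at 0.907 to 0.930. Stromal replicates 2 and 3 correlated at 0.982, but stromal replicate 1 correlated with them at only 0.897 and 0.885. Counting genes at least 2 log2 units above both other libraries of the group, stromal replicate 1 had 280 genes (2.11%), against 20 (0.151%) and 5 (0.0377%) for stromal replicates 2 and 3. It had 438 genes (3.3%) as far below both others, against 11 (0.083%) and 39 (0.294%). Among endothelial replicates 1, 2 and 3 there were 117 (0.882%), 144 (1.09%) and 119 (0.898%) genes above, and 212 (1.6%), 60 (0.453%) and 136 (1.03%) below. The deposited column headers name stromal replicate 1 differently from the other pair, and what that marks is not stated. Xist, which is transcribed from the inactive X chromosome of females, was listed at 1107 and 1250 FPKM in endothelial replicates 2 and 3 and at 1006 FPKM in stromal replicate 3, against 2.35 FPKM or less in the other 3, so both groups mix libraries with and without it. The libraries with Xist were 2 endothelial and 1 stromal, and those without it 1 endothelial and 2 stromal. Within each set, all 2801 genes called over the 6 libraries kept the sign of their difference. These are the same libraries, so this is no separate support. Each set leaves 1 library in a group, so its count of called genes is listed only among the processing settings, and nothing is drawn from it.

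**Figure D1:**
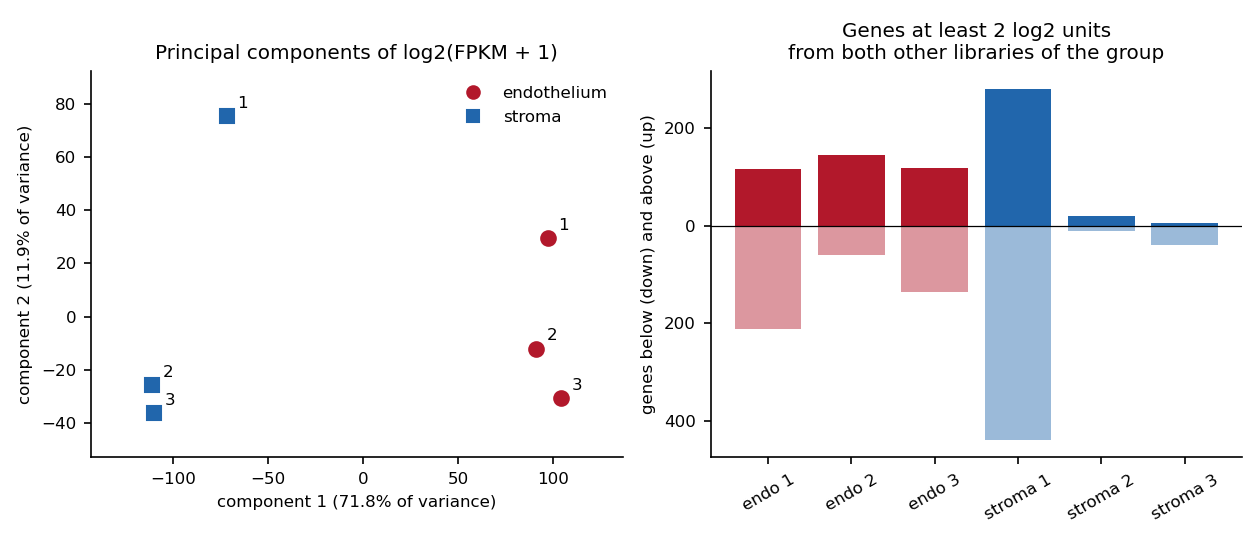
Left, the first and second principal components of log2(FPKM + 1) over 13259 genes (axes in component units, with the share of variance), 1 numbered point per library, circles for endothelium and squares for stroma. Right, the number of genes in each library at least 2 log2 units above (bars up) or below (bars down) both other libraries of its group: stromal replicate 1 has 280 above and 438 below, more than any of the other 5.

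The comparison asks which genes set cultured marrow endothelium apart from cultured marrow stroma. Of 13259 genes tested, 2801 were called (21.1%). Of these, 1333 were higher in endothelium (10.1%) and 1468 were lower (11.1%). The 3 libraries of each group did not overlap for 2912 genes that were higher in endothelium (22%) and 2614 that were lower (19.7%). The median log2 difference over all genes tested was 0.06. The 12 largest rises and the 12 largest falls were taken only among called genes whose groups did not overlap. Lack of overlap in them is therefore a condition of the pick and no result. Gja5, Pecam1 and Tie1 were among the 12 largest rises, and Spp1, Col1a2 and Prrx1 among the 12 largest falls. The count depended on single libraries, and was 3724 without stromal replicate 1, 1853 without endothelial replicate 2, 1199 without stromal replicate 2 and 1321 without stromal replicate 3.

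Gja5, the arterial gap junction protein connexin 40, had 5198, 397 and 4357 FPKM in endothelium, against 5.76, 0 and 0 FPKM in stroma (log2 difference 10.10 ± 1.20, adjusted p = 0.00274). Gja4, which encodes its arterial partner connexin 37, had 2656, 159 and 4315 FPKM in endothelium, against 4.76, 0 and 0 FPKM in stroma (log2 difference 9.42 ± 1.36, adjusted p = 0.00551). In both genes endothelial replicate 2 stood far below the other pair and still above every stromal library. Pecam1, the adhesion molecule CD31, had 4389.5, 3036 and 2382 FPKM in endothelium, against 5.76, 4.06 and 3.86 FPKM in stroma (log2 difference 9.17 ± 0.27, adjusted p = 3.97e-05), and Cdh5, the VE-cadherin of endothelial junctions, had 3224, 2848 and 1275 FPKM in endothelium, against 2.89, 3.85 and 3.74 FPKM in stroma (log2 difference 8.99 ± 0.37, adjusted p = 7.04e-05). Tie1, an endothelial receptor tyrosine kinase, was the tightest: it had 1458, 1502 and 1463 FPKM in endothelium, against 2.31, 2.86 and 3.38 FPKM in stroma (log2 difference 8.59 ± 0.17, adjusted p = 1.7e-05). Both groups were narrow there.

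Icam2, a ligand for leukocyte integrins, had 2579, 2015 and 1579 FPKM in endothelium, against 3.5, 2.06 and 3.28 FPKM in stroma (log2 difference 9.02 ± 0.25, adjusted p = 3.97e-05). Srgn, the proteoglycan of secretory granules, had 565, 376 and 443 FPKM in endothelium, against a listing at 0 in the 3 stromal libraries (adjusted p = 3.97e-05). Myct1, a small endothelial membrane protein, had 353, 832 and 596 FPKM in endothelium, against 1.15, 0 and 0 FPKM in stroma (log2 difference 8.76 ± 0.45, adjusted p = 0.000137). No library of one group came near those of the other in any of the 3 genes, which were picked for lack of overlap. Ecscr, Mmrn2, Ednrb and Nrarp completed the 12 largest rises, with log2 differences between 8.29 and 9.04.

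At the other end, Spp1, which encodes the bone matrix and cytokine-like protein osteopontin, had 18.2, 18.5 and 7.9 FPKM in endothelium, against 16154, 92019.5 and 90377 FPKM in stroma (log2 difference -11.74 ± 0.74, adjusted p = 0.000252). Col1a2, the second chain of type I collagen, had 1.38, 0.64 and 0.72 FPKM in endothelium, against 1609, 4668 and 3535 FPKM in stroma (log2 difference -10.63 ± 0.41, adjusted p = 6.07e-05). Prrx1, a homeobox factor of limb mesenchyme, had 0.74, 0.52 and 0.33 FPKM in endothelium, against 838, 690.0 and 588 FPKM in stroma (log2 difference -8.84 ± 0.23, adjusted p = 3.97e-05). Stromal replicate 1 held less Spp1 and Col1a2 than its partners but the most Prrx1, and all endothelial libraries were near 0 or at most 18.5 FPKM. Thy1, a surface glycoprotein of fibroblasts and T cells, was listed at 0 in the 3 endothelial libraries, against 176, 2363 and 1405 FPKM in stroma (adjusted p = 0.00113). Mgp, an inhibitor of calcification, had 98.5, 57.8 and 71.4 FPKM in endothelium, against 13035, 51534 and 65044 FPKM in stroma (log2 difference -8.87 ± 0.64, adjusted p = 0.000427). Lrp1, a large endocytic receptor, had 2.88, 0.92 and 1.46 FPKM in endothelium, against 406, 1896 and 1872 FPKM in stroma (log2 difference -8.74 ± 0.65, adjusted p = 0.000453). Mgp was thus present in every endothelial library, though far below stroma, while Lrp1 was at 2.88 FPKM or less there. Il1rn, Col1a1, Col6a1, Col6a2, Pcolce and Efemp1 completed the 12 largest falls.

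The promoters of leading genes are shown so that the letters before the start of the genes that differed most can be read beside each other. Of the 24 largest rises and falls, 16 had an entry in the RefSeq table (build GRCm38.p6). The first 4 of each direction that have one are given, passing over genes on a chromosome left out of the choice. Each window is the 250 bases before the most upstream start listed, 5′ to 3′ on the strand of the gene. Capitals mark matches, on either strand, to 4 motifs: CAGGAA and CCGGAA, which hold the core bound by ETS factors, the CCAAT box, and the TATA motif TATAAA. The ETS motifs are called by their first 3 letters after this. No 2 matches overlap in these windows.
Gja5 (chr3:97032152-97032401, plus strand): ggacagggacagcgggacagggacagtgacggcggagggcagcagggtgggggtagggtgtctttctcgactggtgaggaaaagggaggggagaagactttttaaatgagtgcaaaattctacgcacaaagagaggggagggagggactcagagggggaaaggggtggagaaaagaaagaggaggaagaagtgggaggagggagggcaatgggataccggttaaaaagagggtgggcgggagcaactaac
Gja4 (chr4:127314040-127314289, minus strand): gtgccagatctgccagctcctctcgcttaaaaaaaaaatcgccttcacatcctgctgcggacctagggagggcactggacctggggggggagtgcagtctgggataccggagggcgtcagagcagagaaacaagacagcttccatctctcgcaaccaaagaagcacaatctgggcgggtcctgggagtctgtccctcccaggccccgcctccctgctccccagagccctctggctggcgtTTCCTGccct
Srgn (chr10:62527446-62527695, minus strand): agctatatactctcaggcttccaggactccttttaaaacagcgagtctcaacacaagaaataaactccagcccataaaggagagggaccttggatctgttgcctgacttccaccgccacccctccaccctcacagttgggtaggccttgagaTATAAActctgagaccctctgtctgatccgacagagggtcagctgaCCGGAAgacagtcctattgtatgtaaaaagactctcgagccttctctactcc
Myct1 (chr10:5593478-5593727, plus strand): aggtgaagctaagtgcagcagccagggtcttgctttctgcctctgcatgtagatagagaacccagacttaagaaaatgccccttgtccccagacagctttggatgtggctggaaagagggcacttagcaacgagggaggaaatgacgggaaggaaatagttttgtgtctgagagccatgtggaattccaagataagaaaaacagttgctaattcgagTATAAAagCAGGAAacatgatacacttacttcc
Spp1 (chr5:104434861-104435110, plus strand): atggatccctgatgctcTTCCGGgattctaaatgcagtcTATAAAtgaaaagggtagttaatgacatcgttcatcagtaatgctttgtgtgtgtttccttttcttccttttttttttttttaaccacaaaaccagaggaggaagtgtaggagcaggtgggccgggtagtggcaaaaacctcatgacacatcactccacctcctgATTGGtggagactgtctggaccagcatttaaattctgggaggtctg
Col1a2 (chr6:4505368-4505617, plus strand): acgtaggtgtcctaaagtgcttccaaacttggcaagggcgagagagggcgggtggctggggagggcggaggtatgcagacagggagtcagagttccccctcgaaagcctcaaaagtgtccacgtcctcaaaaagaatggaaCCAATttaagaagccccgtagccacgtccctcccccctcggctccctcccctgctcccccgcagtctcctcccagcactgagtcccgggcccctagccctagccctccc
Col6a1 (chr10:76726045-76726294, minus strand): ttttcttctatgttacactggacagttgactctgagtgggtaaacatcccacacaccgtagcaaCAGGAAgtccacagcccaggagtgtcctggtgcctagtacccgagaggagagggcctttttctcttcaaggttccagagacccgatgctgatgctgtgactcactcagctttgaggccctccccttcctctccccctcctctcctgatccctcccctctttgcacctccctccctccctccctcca
Il1rn (chr2:24336610-24336859, plus strand): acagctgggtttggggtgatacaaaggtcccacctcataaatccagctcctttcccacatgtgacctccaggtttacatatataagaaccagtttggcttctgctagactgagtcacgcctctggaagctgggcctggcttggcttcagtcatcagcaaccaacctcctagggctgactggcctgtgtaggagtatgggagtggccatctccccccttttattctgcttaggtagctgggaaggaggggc
The window of Myct1 held the CAG form and the TATA motif, that of Srgn the CCG form and the TATA motif, and that of Gja4 the CAG form alone. Spp1 held the CCG form, the TATA motif and the CCAAT box, Col1a2 held the CCAAT box, and Col6a1 held the CAG form. Gja5 and Il1rn held none of the 4. The CAG form was found in 24.4% of the windows of 989 genes higher in endothelium and 21.2% of those of 1058 genes lower, against 21.8% of 9843 genes tested. The CCG form was found in 15.0%, 14.1% and 22.4%, the CCAAT box in 34.1%, 34.9% and 36.7%, and the TATA motif in 6.17%, 7.94% and 6.33%. These shares describe the letters of the windows and were not tested.

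Gene lists describe the comparison by theme. Each list is given by how many of its tested members were called, and its median stands beside the all-gene median of 0.06. Every count is to be read beside the 10.1% higher and 11.1% lower of all genes tested. Groups did not overlap for 22% (higher) and 19.7% (lower) of all genes tested, and named members were mostly picked among those called. A member that is high in one group alone passes the filter through that group and then has to differ, so these counts describe the lists and support nothing further. Zeros are taken at face value in the medians. Where leaving out 1 library moved a count of 3 or more by over 1.5 times, its value then is given. Of the 38 counts of 2 or fewer, 22 moved as much.

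**Figure D2:**
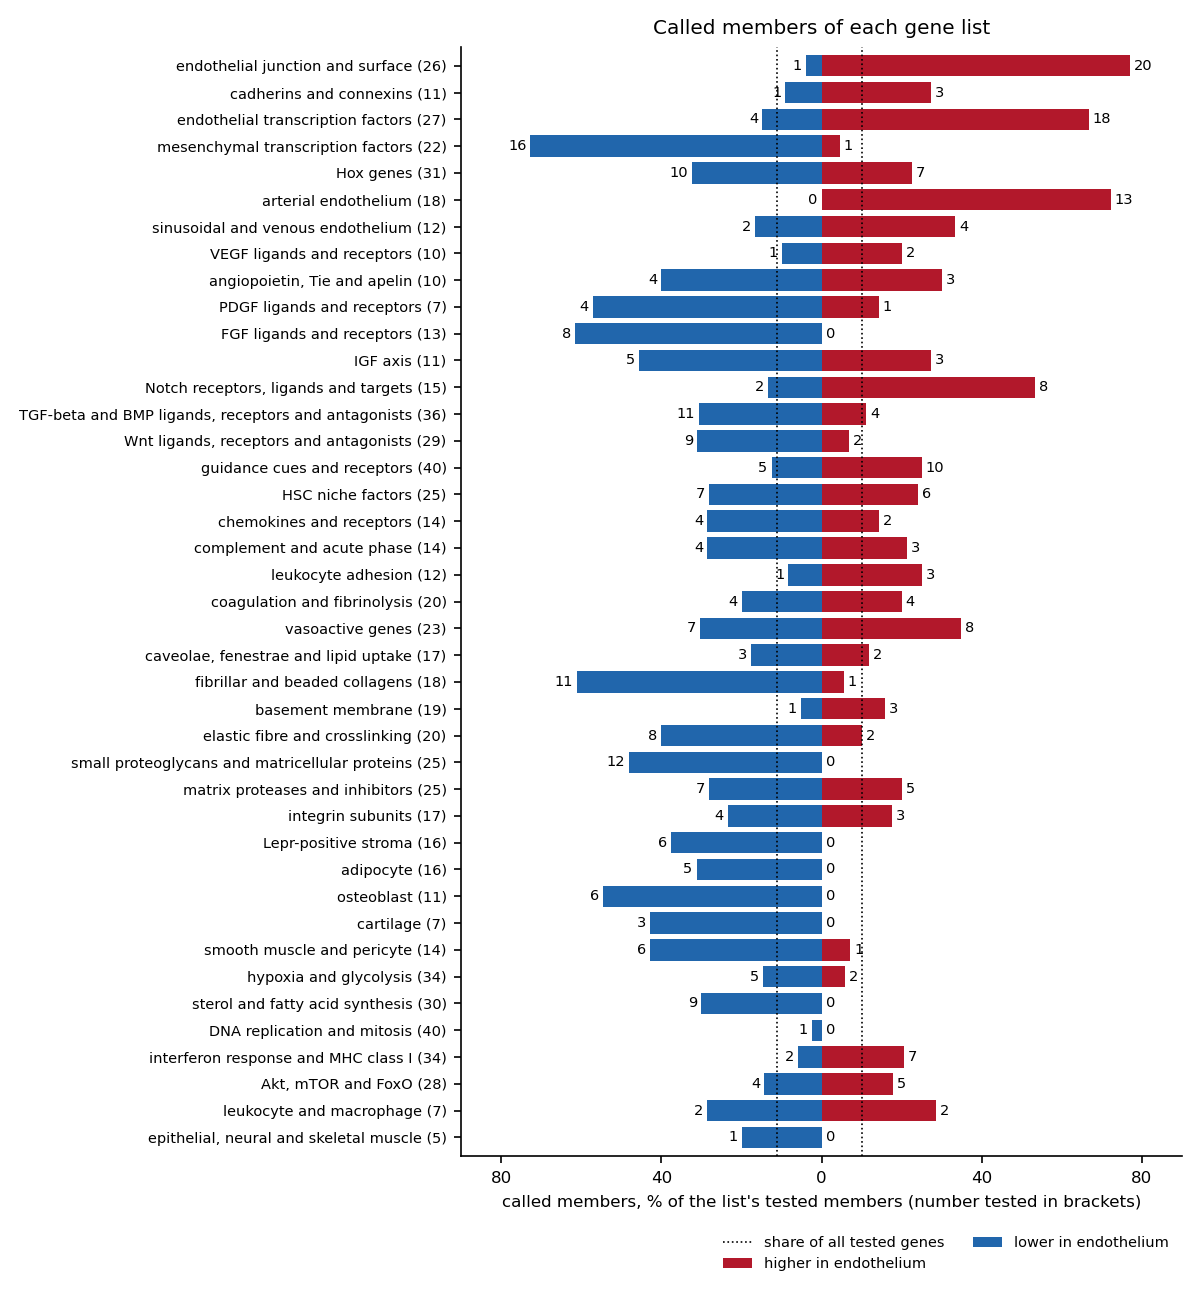
Called members of each gene list as a percentage of the members tested (number tested in brackets), red to the right for genes higher in endothelium and blue to the left for genes lower, with the number called at each bar. Dotted lines mark the 10.1% and 11.1% of all tested genes called in each direction; endothelial surface, arterial and endothelial factor lists reach furthest to the right, and mesenchymal factors, FGF and collagens furthest to the left.

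The labelled cell types were checked against their defining markers. The 5 endothelial markers Pecam1, Cdh5, Tie1, Kdr and Erg were all higher in endothelium, and the 6 stromal markers Col1a1, Col1a2, Pdgfra, Pdgfrb, Prrx1 and Twist2 were all lower. All 26 junction and surface genes of endothelium were tested, 20 were higher and 1 lower, with a median log2 difference of 5.93. Ptprb, a phosphatase that restrains Tie2, had 763, 559.5 and 817 FPKM in endothelium, against 4.94, 1.03 and 1.59 FPKM in stroma (log2 difference 7.81 ± 0.42, adjusted p = 0.000167). Egfl7, an endothelial secreted protein, had 1604, 2059 and 1893 FPKM in endothelium, against 28.6, 20.6 and 33.1 FPKM in stroma (log2 difference 6.04 ± 0.22, adjusted p = 5.84e-05). Cldn5, the tight junction claudin of brain vessels, had 3.62, 101 and 71.6 FPKM in endothelium, against a listing at 0 in the 3 stromal libraries (adjusted p = 0.0272) and was lowest in endothelial replicate 1. Esam, an adhesion molecule of endothelial junctions, had 1739, 2208 and 944 FPKM in endothelium, against 352, 1.84 and 2.08 FPKM in stroma (log2 difference 6.72 ± 1.85, adjusted p = 0.0475). Stromal replicate 1 alone among stroma held a high level of Esam. Eng and Cd34 missed the test: Eng had 395, 834 and 233 FPKM in endothelium, against 24.6, 87.7 and 192 FPKM in stroma (log2 difference 2.49 ± 0.80, adjusted p = 0.0751), and Cd34 had 1255, 3314 and 1805 FPKM in endothelium, against 1857, 248 and 139.8 FPKM in stroma (log2 difference 2.28 ± 0.97, adjusted p = 0.147), with stromal replicate 1 inside the endothelial range. Cldn5 missed the threshold without endothelial replicate 2 or 3 or any stromal library (adjusted p = 0.059 to 0.0896). Esam missed the threshold without any endothelial library or stromal replicate 2 or 3 (adjusted p = 0.104 to 0.148).

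Esm1 went against its list. This secreted proteoglycan, known as endocan and named for endothelium, had 0, 2.72 and 0 FPKM in endothelium, against 643, 598 and 652 FPKM in stroma (log2 difference -8.67 ± 0.53, adjusted p = 0.000229). It was listed at 0 in 2 of 3 endothelial libraries and was even across stroma.

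Transcription factors divided by lineage. Of 27 tested factors of endothelium, 18 were higher and 4 lower (median 3.09). Erg, an ETS factor that keeps endothelial identity, had 445, 502 and 264 FPKM in endothelium, against 0.88, 1.17 and 0 FPKM in stroma (log2 difference 7.93 ± 0.40, adjusted p = 0.000133). Sox18, a SOX factor of vascular development, had 1844, 759 and 720.4 FPKM in endothelium, against 1.87, 2.3 and 6.46 FPKM in stroma (log2 difference 7.92 ± 0.51, adjusted p = 0.000255). Tal1, a helix-loop-helix factor shared by blood and endothelium, had 83.6, 82 and 103 FPKM in endothelium, against a listing at 0 in the 3 stromal libraries (adjusted p = 5.84e-05). Hhex, Sox7, Lyl1, Lmo2 and Fli1 were called in the same direction. Lmo2 missed the threshold without endothelial replicate 1 or 3 or stromal replicate 3 (adjusted p = 0.0577 to 0.0777). The 4 that were lower in endothelium were Meox1, Meox2, Tbx3 and Foxc1. Meox1 missed the threshold without any endothelial library or stromal replicate 2 or 3 (adjusted p = 0.0519 to 0.0734). Meox2, a homeobox factor described both in vessels and in mesoderm, had 10.8, 2.72 and 1.7 FPKM in endothelium, against 106, 89.7 and 125 FPKM in stroma (log2 difference -4.44 ± 0.56, adjusted p = 0.00337). Foxc1, a forkhead factor of marrow stroma as well as vessels, had 15.3, 14.7 and 14.3 FPKM in endothelium, against 33.1, 45.9 and 36.8 FPKM in stroma (log2 difference -1.31 ± 0.21, adjusted p = 0.00859), the smallest of the 4 differences and without overlap. Foxc1 missed the threshold without stromal replicate 2 (adjusted p = 0.057). The 4 lower factors became 2 without stromal replicate 2.

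Of 31 mesenchymal factors 22 were tested, 16 were lower in endothelium and 1 was higher (median -4.14). Twist1, a helix-loop-helix factor of mesenchyme, was listed at 0 in the 3 endothelial libraries, against 325, 138 and 123 FPKM in stroma (adjusted p = 0.000169). Sox9, the factor of chondrocytes and their progenitors, had 0.68, 0 and 0 FPKM in endothelium, against 40.2, 158 and 129 FPKM in stroma (log2 difference -6.32 ± 0.57, adjusted p = 0.000902). Runx2, the master factor of osteoblasts, had 2.93, 1.52 and 2.39 FPKM in endothelium, against 58.2, 47.7 and 49.4 FPKM in stroma (log2 difference -4.03 ± 0.27, adjusted p = 0.000316). Ebf3, a factor of Cxcl12-rich marrow stroma, had 5.74, 4.66 and 1.67 FPKM in endothelium, against 23.1, 54.7 and 49 FPKM in stroma (log2 difference -3.12 ± 0.49, adjusted p = 0.0077). Stroma lay above endothelium in every library of these 4. The single factor that was higher in endothelium was Msx1, which had 190.3, 42.2 and 167 FPKM in endothelium, against 8.45, 22.6 and 24.3 FPKM in stroma (log2 difference 2.65 ± 0.67, adjusted p = 0.0377). Msx1 missed the threshold without endothelial replicate 1 or 3 or any stromal library (adjusted p = 0.077 to 0.112). The count of 16 fell to 9 without stromal replicate 2 or 3.

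Hox genes record the position of a cell along the body axis and lie in 4 clusters. Of the 39 listed, 31 were tested, 7 were higher and 10 lower, and the clusters behaved differently. All 8 tested Hoxc genes were listed at 0 in every endothelial library and were lower in endothelium. Hoxc10 was listed at 0 in the 3 endothelial libraries, against 67, 97.2 and 114 FPKM in stroma (adjusted p = 8.79e-05), and Hoxc6 was listed at 0 in the 3 endothelial libraries, against 45.3, 79.1 and 84.2 FPKM in stroma (adjusted p = 0.000155). All 5 tested Hoxd genes were higher in endothelium. Hoxd8 had 501, 179 and 173 FPKM in endothelium, against 97.8, 43.5 and 75.3 FPKM in stroma (log2 difference 1.85 ± 0.50, adjusted p = 0.0444), and Hoxd10 had 8.48, 104 and 147 FPKM in endothelium, against a listing at 0 in the 3 stromal libraries (adjusted p = 0.0118). Hoxd8 was present in all 6 libraries, and Hoxd10 in endothelium alone. Hoxd8 missed the threshold without any single library (adjusted p = 0.0502 to 0.143).

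Of 10 tested Hoxa genes 2 were lower in endothelium. Hoxa11 had 0, 0 and 0.59 FPKM in endothelium, against 157, 38 and 22.3 FPKM in stroma (log2 difference -5.49 ± 0.72, adjusted p = 0.00393) and Hoxa9 had 15.4, 20.8 and 32.6 FPKM in endothelium, against 88.4, 48.5 and 65.9 FPKM in stroma (log2 difference -1.54 ± 0.35, adjusted p = 0.026). Of 8 tested Hoxb genes 2 were higher: Hoxb9 had 152, 29.7 and 67 FPKM in endothelium, against 0, 3.92 and 0 FPKM in stroma (log2 difference 5.33 ± 0.83, adjusted p = 0.00761), and Hoxb8 had 83.2, 53.9 and 31.7 FPKM in endothelium, against 0, 9.52 and 7.37 FPKM in stroma (log2 difference 3.58 ± 0.93, adjusted p = 0.041). All 8 tested Hoxb genes were listed at 0 in stromal replicate 1, while stromal replicates 2 and 3 reached 32.7 FPKM. Hoxb7, the highest Hoxb gene in endothelium, had 189, 137 and 82.2 FPKM in endothelium, against 0, 31.6 and 32.7 FPKM in stroma (log2 difference 3.65 ± 1.37, adjusted p = 0.11). Hoxa9 missed the threshold without endothelial replicate 1 or 2 or any stromal library (adjusted p = 0.0512 to 0.0911). Hoxb8 missed the threshold without any endothelial library or stromal replicate 2 or 3 (adjusted p = 0.0576 to 0.107). The count of 7 higher Hox genes became 4 without endothelial replicate 3 or stromal replicate 3 and 11 without stromal replicate 1. The labels do not say whether counting used strand, so reads of a Hox gene and of its antisense partner cannot be told apart.

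**Figure D3:**
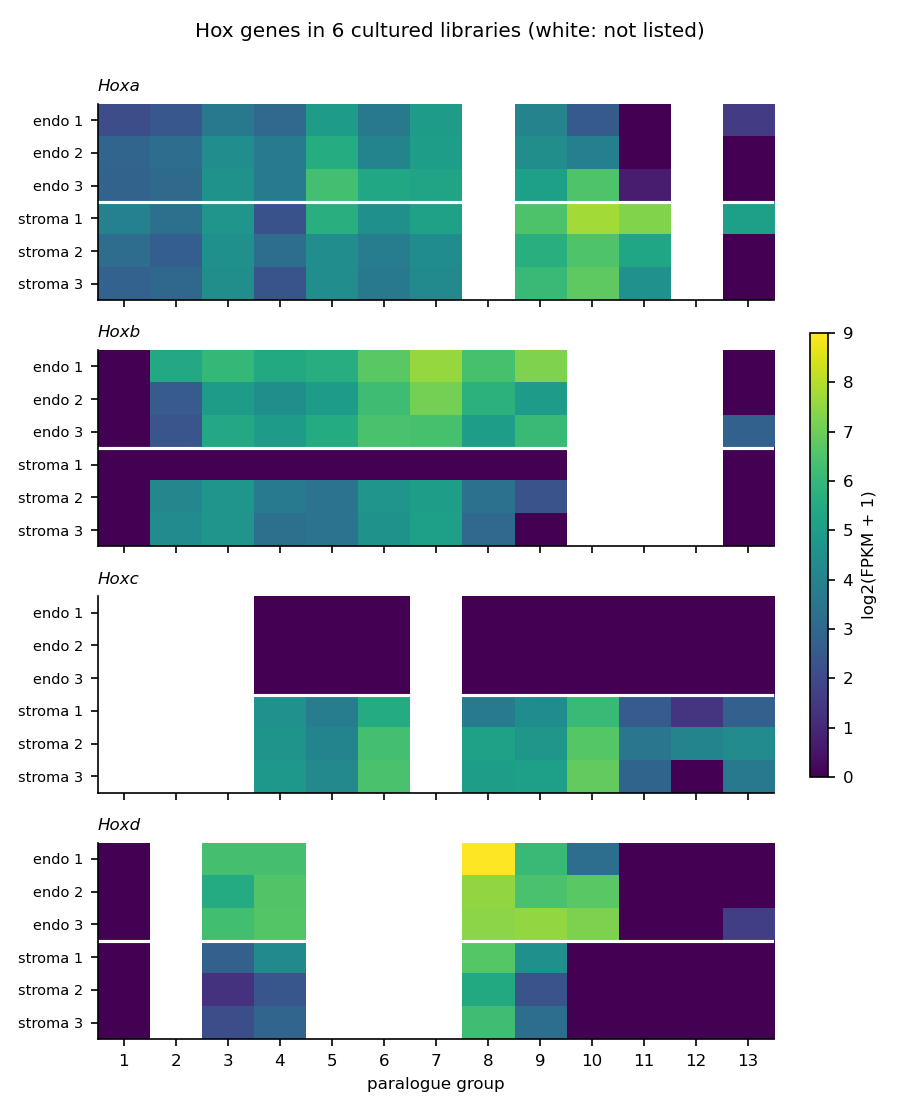
Levels of the Hox genes by cluster (panels) and paralogue group (columns) in the 6 libraries (rows, endothelium above stroma), coloured by log2(FPKM + 1), with white where a gene is not listed. Hoxc is at 0 (darkest) in endothelium and above 0 in most of stroma, the tested Hoxd genes are higher in endothelium, and Hoxb is at 0 in stromal replicate 1.

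Among the vessel subtypes, the arterial list had the highest share of called members. Of 20 in the list 18 were tested, 13 were higher and 0 lower (median 4.35). Beside the connexins above, Bmx, a kinase of arterial endothelium, had 188, 115 and 559 FPKM in endothelium, against 0.69, 0 and 0 FPKM in stroma (log2 difference 7.60 ± 0.60, adjusted p = 0.000613). Sox17, an arterial SOX factor, had 332, 49.4 and 531 FPKM in endothelium, against 0.63, 0 and 0 FPKM in stroma (log2 difference 7.46 ± 0.87, adjusted p = 0.00249). Sema3g, an arterial semaphorin, had 688, 20.6 and 415 FPKM in endothelium, against 0.9, 0 and 0 FPKM in stroma (log2 difference 7.21 ± 1.27, adjusted p = 0.0116). Endothelial replicate 2 was the lowest of its group in each. The same held for 15 of 19 arterial genes that reached 1 FPKM in endothelium (78.9%), whereas endothelial replicate 2 was lowest in 29.3% of all genes. Hey1, a Notch target of arteries, had 338, 11.6 and 309 FPKM in endothelium, against 13.9, 0 and 0 FPKM in stroma (log2 difference 5.48 ± 1.62, adjusted p = 0.0589), with endothelial replicate 2 inside the stromal range. Efnb2, the arterial ephrin, had 1293, 127 and 549.6 FPKM in endothelium, against 81.9, 115 and 106 FPKM in stroma (log2 difference 2.15 ± 0.79, adjusted p = 0.104).

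Sinusoidal and venous genes were called in both directions. Of 19, 12 were tested, 4 were higher and 2 lower (median 1.44). Emcn, the sialoglycoprotein endomucin of veins and sinusoids, had 1327, 6070.1 and 706 FPKM in endothelium, against 2.63, 6.28 and 9.15 FPKM in stroma (log2 difference 8.11 ± 0.82, adjusted p = 0.00146). Stab1, a scavenger receptor of sinusoids, had 155, 822 and 137 FPKM in endothelium, against 0.47, 1.91 and 2.88 FPKM in stroma (log2 difference 6.68 ± 0.76, adjusted p = 0.00229). Ephb4, the venous receptor of ephrin-B2, had 720.2, 595 and 788 FPKM in endothelium, against 36.5, 92 and 88.1 FPKM in stroma (log2 difference 3.36 ± 0.38, adjusted p = 0.00213). Endothelial replicate 2 was the highest of its group for Emcn and Stab1, and for 12 of 16 sinusoidal genes that reached 1 FPKM in endothelium (75%), against 27.4% of all genes. Ctsl and Il6st were lower in endothelium: Ctsl, a lysosomal protease, had 277, 868 and 298 FPKM in endothelium, against 1656, 1835 and 1994 FPKM in stroma (log2 difference -2.13 ± 0.46, adjusted p = 0.0234), and Il6st, the shared receptor chain of the interleukin 6 family, had 151, 168 and 200.3 FPKM in endothelium, against 284, 405 and 413 FPKM in stroma (log2 difference -1.07 ± 0.21, adjusted p = 0.0183). Ctsl missed the threshold without endothelial replicate 1 or 3 or stromal replicate 2 or 3 (adjusted p = 0.0623 to 0.0837). Il6st missed the threshold without endothelial replicate 1 or 2 or stromal replicate 2 or 3 (adjusted p = 0.051 to 0.084).

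Of 9 lymphatic genes 4 were tested. Pdpn, the podoplanin of lymphatic endothelium and of some fibroblasts, was lower: it had 0, 3.05 and 1.56 FPKM in endothelium, against 792, 102 and 287 FPKM in stroma (log2 difference -7.04 ± 0.84, adjusted p = 0.00277). Flt4, the receptor of VEGF-C, had 61.8, 71.8 and 12.9 FPKM in endothelium, against 32, 2.57 and 2.33 FPKM in stroma (log2 difference 2.45 ± 1.07, adjusted p = 0.157), with stromal replicate 1 above endothelial replicate 3.

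The angiogenic receptors Kdr, Flt1 and Tek were higher in endothelium, and the ligands Angpt1 and Figf were lower. Kdr, the main signaling receptor of VEGF-A, had 968, 648 and 151 FPKM in endothelium, against 0.99, 1.8 and 3.06 FPKM in stroma (log2 difference 7.33 ± 0.70, adjusted p = 0.00119). Flt1, the high-affinity VEGF receptor that can act as a decoy, had 419, 203 and 247 FPKM in endothelium, against 5.61, 3.58 and 2.82 FPKM in stroma (log2 difference 5.83 ± 0.35, adjusted p = 0.000209). Tek, the angiopoietin receptor Tie2, had 362, 355 and 459 FPKM in endothelium, against 1.25, 2.48 and 4.18 FPKM in stroma (log2 difference 6.83 ± 0.33, adjusted p = 0.000124). Every endothelial library lay far above every stromal one in these receptors. Angpt1, the agonist of Tie2, had 0, 7.51 and 3.96 FPKM in endothelium, against 75, 59.9 and 80.3 FPKM in stroma (log2 difference -4.37 ± 0.77, adjusted p = 0.0114). Figf, which encodes VEGF-D, had 20, 3.46 and 3.67 FPKM in endothelium, against 104, 50.4 and 39.4 FPKM in stroma (log2 difference -2.99 ± 0.69, adjusted p = 0.0288). Both ligands were highest in stroma with no overlap. Figf missed the threshold without endothelial replicate 2 or 3 or any stromal library (adjusted p = 0.0643 to 0.0868). Vegfa itself overlapped: it had 120.2, 120.0 and 600.1 FPKM in endothelium, against 244, 366 and 296 FPKM in stroma (log2 difference -0.53 ± 0.64, adjusted p = 0.591). Of 10 tested VEGF genes 2 were higher and 1 lower (median 1.49), and of 10 tested angiopoietin, Tie and apelin genes 3 were higher and 4 lower (median -2.47).

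The PDGF B chain ran the other way round, with the ligand in endothelium and the receptors in stroma. Pdgfb, the ligand by which endothelium recruits pericytes, had 184, 51.3 and 169 FPKM in endothelium, against a listing at 0 in the 3 stromal libraries (adjusted p = 0.000474). Pdgfrb, its receptor on pericytes and stroma, had 0.73, 0 and 0.27 FPKM in endothelium, against 58.2, 752 and 761 FPKM in stroma (log2 difference -7.96 ± 1.01, adjusted p = 0.00345), and Pdgfra, the receptor of mesenchymal progenitors, had 6.47, 0.88 and 5.63 FPKM in endothelium, against 249, 579 and 532 FPKM in stroma (log2 difference -6.55 ± 0.61, adjusted p = 0.00105). Pdgfrb in stromal replicate 1 was far below its level in the other stromal libraries, and the groups still did not overlap. Of 7 tested genes 1 was higher and 4 lower (median -3.26).

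FGF genes leaned to stroma. Of 18, 13 were tested, 0 were higher and 8 lower (median -2.05). Fgf7, the keratinocyte growth factor, had 1.43, 1.69 and 0.97 FPKM in endothelium, against 574, 434 and 365 FPKM in stroma (log2 difference -7.59 ± 0.25, adjusted p = 4.17e-05). Fgf2, a broad growth factor for mesenchyme and vessels, had 3.52, 0 and 0 FPKM in endothelium, against 128, 253 and 287 FPKM in stroma (log2 difference -6.999 ± 0.67, adjusted p = 0.00118). Fgfr1, a receptor of FGF2, had 112, 160.3 and 65.8 FPKM in endothelium, against 206, 692 and 604 FPKM in stroma (log2 difference -2.05 ± 0.54, adjusted p = 0.0426). The receptor differed far less than the ligands, and endothelial replicate 2 came close to stromal replicate 1. Spry2, a feedback inhibitor of FGF signaling, had 34.3, 34.9 and 20.3 FPKM in endothelium, against 161, 248 and 233 FPKM in stroma (log2 difference -2.82 ± 0.28, adjusted p = 0.00146). Fgfr1 missed the threshold without any endothelial library or stromal replicate 2 or 3 (adjusted p = 0.0621 to 0.139). The 8 lower genes became 4 without endothelial replicate 1 or stromal replicate 2 or 3 and 5 without endothelial replicate 2.

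In the insulin-like growth factor axis 3 of 11 tested genes were higher and 5 lower (median -1.88). Igf2, a fetal growth factor, had 146, 52.1 and 548 FPKM in endothelium, against 0.82, 0.75 and 1.46 FPKM in stroma (log2 difference 6.35 ± 0.81, adjusted p = 0.00353). Igf1r, the receptor that signals for both IGFs, had 13.2, 7.56 and 9.72 FPKM in endothelium, against 83.4, 66.7 and 61.8 FPKM in stroma (log2 difference -2.70 ± 0.27, adjusted p = 0.00129). Igf2r, which clears IGF2, had 27.4, 64 and 28.8 FPKM in endothelium, against 117, 273 and 302 FPKM in stroma (log2 difference -2.49 ± 0.48, adjusted p = 0.0156). Ligand and receptors were thus highest on opposite sides. The binding proteins divided: Igfbp3 had 1655, 684 and 593 FPKM in endothelium, against 64.5, 49.2 and 44.5 FPKM in stroma (log2 difference 4.05 ± 0.41, adjusted p = 0.00147), whereas Igfbp6 had 1.27, 0 and 0 FPKM in endothelium, against 432, 614 and 435 FPKM in stroma (log2 difference -8.54 ± 0.39, adjusted p = 9.12e-05). Igf2r missed the threshold without endothelial replicate 3 or stromal replicate 2 or 3 (adjusted p = 0.055 to 0.0657). The 5 lower genes became 3 without endothelial replicate 3 or stromal replicate 2 or 3.

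Notch genes leaned to endothelium, with 8 of 15 tested members higher and 2 lower (median 2.86). Of the ligands, Dll4, which marks arterial and tip cells, had 453, 64.9 and 317 FPKM in endothelium, against 0.51, 0 and 0.79 FPKM in stroma (log2 difference 7.25 ± 0.73, adjusted p = 0.00147). Jag1 had 801, 196 and 723 FPKM in endothelium, against 12.1, 39.1 and 37 FPKM in stroma (log2 difference 4.16 ± 0.68, adjusted p = 0.00861). Dll1 had 286, 213 and 116 FPKM in endothelium, against 0.72, 1.08 and 0.78 FPKM in stroma (log2 difference 6.70 ± 0.36, adjusted p = 0.000169). All 3 ligands were lower in every stromal library than in any endothelial one. Of the receptors, Notch1 had 220.0, 156 and 182 FPKM in endothelium, against 7.95, 34.5 and 36.7 FPKM in stroma (log2 difference 3.02 ± 0.57, adjusted p = 0.0146), but Notch2 had 8.14, 5.18 and 6.29 FPKM in endothelium, against 36.3, 73.2 and 63.3 FPKM in stroma (log2 difference -2.92 ± 0.33, adjusted p = 0.00233). Nrarp, a feedback target of Notch, had 571, 720.1 and 230.2 FPKM in endothelium, against 2.09, 0 and 0 FPKM in stroma (log2 difference 8.29 ± 0.61, adjusted p = 0.000452), and Rbpj, the DNA-binding factor through which Notch acts, had 35.9, 39.5 and 46.5 FPKM in endothelium, against 214, 209 and 210.2 FPKM in stroma (log2 difference -2.36 ± 0.16, adjusted p = 0.000316). Rbpj was nearly even within both groups and lower in endothelium. The 8 higher genes became 5 without stromal replicate 2.

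**Figure D4:**
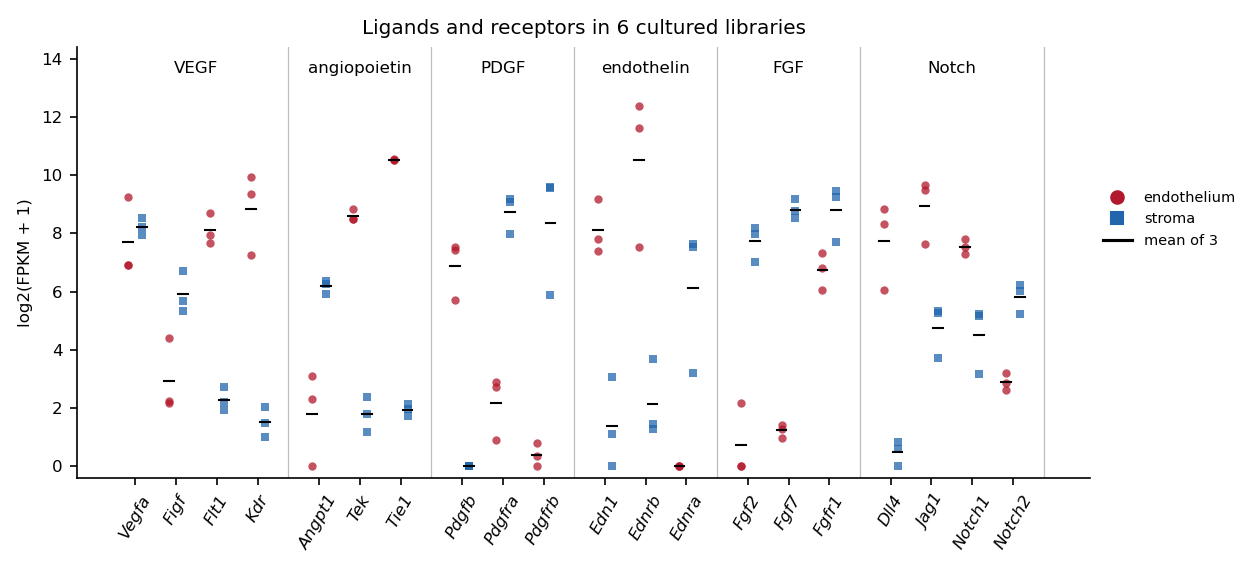
Levels of ligands and receptors, as log2(FPKM + 1), with endothelium (circles, left) and stroma (squares, right) for each gene, 1 point per library and a line at the mean of 3. Receptors Kdr, Flt1, Tek and Tie1 and ligands Pdgfb, Edn1, Dll4 and Jag1 are high in endothelium; ligands Angpt1, Figf, Fgf2 and Fgf7 and receptors Pdgfra, Pdgfrb, Ednra and Notch2 are high in stroma.

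Of 36 tested TGF-beta and BMP genes 4 were higher (11.1%) and 11 lower (30.6%), beside 10.1% and 11.1% of all genes tested (median -0.64). Acvrl1, the endothelial type I receptor ALK1, had 829, 299.7 and 309 FPKM in endothelium, against 16.2, 25.6 and 38.2 FPKM in stroma (log2 difference 4.02 ± 0.49, adjusted p = 0.00289), and Tgfbr2, the type II receptor of TGF-beta, had 782, 499 and 411 FPKM in endothelium, against 105, 158 and 165 FPKM in stroma (log2 difference 1.95 ± 0.30, adjusted p = 0.00749). Grem1, a secreted BMP antagonist of skeletal stem cells and stroma, had 0, 1.76 and 0 FPKM in endothelium, against 507, 399 and 404 FPKM in stroma (log2 difference -8.28 ± 0.44, adjusted p = 0.000155). Ltbp1, which anchors latent TGF-beta in matrix, had 43.6, 34.7 and 54.5 FPKM in endothelium, against 408, 373 and 407 FPKM in stroma (log2 difference -3.15 ± 0.20, adjusted p = 0.000252). The antagonist was listed at 0 in 2 endothelial libraries, while Ltbp1 was present in all 6. Id2, a target of BMP signals, had 945, 739 and 1358 FPKM in endothelium, against 144, 105 and 102 FPKM in stroma (log2 difference 3.08 ± 0.28, adjusted p = 0.000906). Bmp6 had 24.8, 58.8 and 307 FPKM in endothelium, against 2.75, 1.39 and 1.19 FPKM in stroma (log2 difference 4.86 ± 0.88, adjusted p = 0.0127), with endothelial replicate 3 far above its partners. Bmp6 missed the threshold without stromal replicate 2 or 3 (adjusted p = 0.0502 to 0.0531). The 11 lower genes became 7 without stromal replicate 2.

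Of 29 tested Wnt genes 2 were higher and 9 lower (median -1.05). The Frizzled receptors divided. Fzd4, the vascular receptor for norrin, had 207, 309 and 326 FPKM in endothelium, against 15.7, 10.1 and 18.6 FPKM in stroma (log2 difference 4.17 ± 0.29, adjusted p = 0.000359), and Fzd6 had 801, 1115 and 441 FPKM in endothelium, against 29, 2.39 and 0.84 FPKM in stroma (log2 difference 7.003 ± 1.03, adjusted p = 0.00586). Fzd7 had 16.8, 13.5 and 8.23 FPKM in endothelium, against 106, 122 and 125 FPKM in stroma (log2 difference -3.15 ± 0.28, adjusted p = 0.000886), and Fzd2 had 23.9, 11.8 and 17.8 FPKM in endothelium, against 84.2, 97.8 and 85.6 FPKM in stroma (log2 difference -2.31 ± 0.28, adjusted p = 0.0028). None of these 4 receptors, picked among called genes, overlapped between the groups. The same held for 22% (higher) and 19.7% (lower) of all genes tested. Ror2, a receptor for WNT5A, was listed at 0 in the 3 endothelial libraries, against 13.9, 29.9 and 34.9 FPKM in stroma (adjusted p = 0.000778), and Rspo2, which strengthens Wnt signals, was listed at 0 in the 3 endothelial libraries, against 6.43, 43.9 and 35 FPKM in stroma (adjusted p = 0.00711). The 9 lower genes became 4 without stromal replicate 2 or 3 and 5 without endothelial replicate 2.

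Of 40 tested guidance genes 10 were higher and 5 lower (median 0.60). Plxnd1, the semaphorin receptor of vessels, had 605, 902 and 658 FPKM in endothelium, against 13.1, 77.7 and 82.1 FPKM in stroma (log2 difference 3.98 ± 0.69, adjusted p = 0.011). Sema3f, a repellent of endothelium, had 282, 277 and 205 FPKM in endothelium, against 17.6, 17.8 and 19.1 FPKM in stroma (log2 difference 3.72 ± 0.18, adjusted p = 0.00013). Ephb1, an ephrin-B receptor, had 53, 105 and 31.5 FPKM in endothelium, against 0, 0.47 and 0 FPKM in stroma (log2 difference 5.65 ± 0.48, adjusted p = 0.000761). Unc5c, a netrin receptor, was listed at 0 in the 3 endothelial libraries, against 18.1, 49.1 and 43.3 FPKM in stroma (adjusted p = 0.000722). None of the 4, picked among called genes, overlapped between the groups, beside 22% (higher) and 19.7% (lower) of all genes tested. Stromal replicate 1 was the lowest stromal library for Plxnd1. The 5 lower genes became 2 without endothelial replicate 1 or 3 or stromal replicate 3 and 3 without endothelial replicate 2 or stromal replicate 2.

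The factors by which the marrow niche holds hematopoietic stem cells were divided, with 6 of 25 tested genes higher and 7 lower (median -0.05). Cxcl12, the chemokine that retains stem cells, had 2359.8, 243 and 3024 FPKM in endothelium, against 152, 925 and 837 FPKM in stroma (log2 difference 1.29 ± 1.15, adjusted p = 0.462). Kitl, the stem cell factor, had 611, 393 and 1034 FPKM in endothelium, against 185, 298 and 259.6 FPKM in stroma (log2 difference 1.37 ± 0.39, adjusted p = 0.0504). Neither passed the test. Cxcl12 in endothelial replicate 2 lay below stromal replicates 2 and 3, whereas its partners held more than any stromal library. Csf1, the macrophage growth factor, had 116, 84.8 and 38.3 FPKM in endothelium, against 505, 2614 and 2444 FPKM in stroma (log2 difference -4.33 ± 0.73, adjusted p = 0.00986). Ptn, the growth factor pleiotrophin, was listed at 0 in the 3 endothelial libraries, against 33.2, 289.9 and 223 FPKM in stroma (adjusted p = 0.00231). Mdk, the related midkine, had 7.41, 7.4 and 4.96 FPKM in endothelium, against a listing at 0 in the 3 stromal libraries (adjusted p = 0.00165). Pleiotrophin and midkine were thus listed on opposite sides, midkine at below 10 FPKM. Lif and Il11, cytokines of the interleukin 6 family, were lower in endothelium, at 0.99 FPKM or less against 3.44 to 8.09 FPKM in stroma. Il11 missed the threshold without stromal replicate 2 or 3 (adjusted p = 0.0524 to 0.0617). Vcam1, an adhesion molecule for stem cells, had 138, 126 and 34.1 FPKM in endothelium, against 154, 340.1 and 413 FPKM in stroma (log2 difference -1.72 ± 0.62, adjusted p = 0.102).

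Of 28 chemokine genes 14 were tested, 2 were higher and 4 lower (median 1.00). Ccrl2, an atypical receptor that holds chemerin, had 48.3, 13.7 and 50.8 FPKM in endothelium, against a listing at 0 in the 3 stromal libraries (adjusted p = 0.00169). Cxcr4, the receptor of CXCL12, had 83.7, 3.03 and 80.5 FPKM in endothelium, against a listing at 0 in the 3 stromal libraries (adjusted p = 0.0318), with 3.03 FPKM in endothelial replicate 2 alone. Ccl7, an attractant of monocytes, had 4.29, 35.9 and 0 FPKM in endothelium, against 90, 836 and 737 FPKM in stroma (log2 difference -6.05 ± 1.45, adjusted p = 0.0323). Cxcr4 missed the threshold without endothelial replicate 1 or 3 or any stromal library (adjusted p = 0.0663 to 0.0997). Ccl7 missed the threshold without endothelial replicate 1 or 3 or stromal replicate 2 or 3 (adjusted p = 0.0717 to 0.112). The 4 lower chemokine genes became 1 without endothelial replicate 3 or stromal replicate 2 or 3 and 2 without endothelial replicate 1. Of 14 tested complement genes 3 were higher and 4 lower (median -1.93). C1s, a protease that starts the classical pathway, was listed at 0 in the 3 endothelial libraries, against 18.1, 369.8 and 383 FPKM in stroma (adjusted p = 0.00859), and Cd59a, which blocks the membrane attack complex, had 360.2, 936 and 409 FPKM in endothelium, against 23.7, 12.5 and 18.8 FPKM in stroma (log2 difference 4.79 ± 0.42, adjusted p = 0.000839). Stromal replicate 1 was the lowest stromal library for 15 of 21 complement genes (71.4%), against 38.1% of all genes. The 3 higher complement genes became 1 without endothelial replicate 2 or 3 or stromal replicate 2, and the 4 lower ones 2 without endothelial replicate 1 or 2 or 3 or stromal replicate 2 or 3. Of 12 tested leukocyte adhesion genes 3 were higher and 1 lower (median 0.98). Sele, the selectin of activated endothelium and of marrow vessels, had 51.5, 67.6 and 34.3 FPKM in endothelium, against 2.57, 4.05 and 5.02 FPKM in stroma (log2 difference 3.40 ± 0.35, adjusted p = 0.00157). Cd44, a receptor of hyaluronan, had 179, 38.6 and 19.3 FPKM in endothelium, against 1486, 828 and 478 FPKM in stroma (log2 difference -3.998 ± 0.84, adjusted p = 0.0211). Cd44 missed the threshold without endothelial replicate 2 or 3 or stromal replicate 1 or 2 (adjusted p = 0.0516 to 0.0735).

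Coagulation genes were called equally often in both directions, 4 and 4 of 20 tested (median 0.07). Vwf, the platelet-binding protein stored by endothelium, had 141, 127 and 694 FPKM in endothelium, against 0.68, 0.37 and 0.26 FPKM in stroma (log2 difference 7.35 ± 0.66, adjusted p = 0.000924). Procr, the endothelial receptor of protein C, had 849, 5494 and 544 FPKM in endothelium, against 68.3, 75.1 and 70.6 FPKM in stroma (log2 difference 4.24 ± 0.82, adjusted p = 0.0162). Tfpi, the inhibitor of the tissue factor pathway, had 336, 482 and 338 FPKM in endothelium, against 90.4, 63.8 and 153 FPKM in stroma (log2 difference 1.97 ± 0.34, adjusted p = 0.0111). F3, which encodes tissue factor, the starter of clotting, had 0, 1.7 and 3.06 FPKM in endothelium, against 92.7, 184 and 199 FPKM in stroma (log2 difference -6.09 ± 0.58, adjusted p = 0.00118). Anticoagulant Procr and Tfpi lay above stroma and tissue factor below it, without overlap. Serpine2, an inhibitor of thrombin, had 11.4, 17.5 and 26.3 FPKM in endothelium, against 234, 1427 and 1601 FPKM in stroma (log2 difference -5.46 ± 0.77, adjusted p = 0.00503). Procr missed the threshold without stromal replicate 2 or 3 (adjusted p = 0.0577 to 0.0596). The 4 lower genes became 2 without endothelial replicate 3 or stromal replicate 2.

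Of 23 tested vasoactive genes 8 were higher and 7 lower (median 0.68). Nos3, the nitric oxide synthase of endothelium, had 1028, 519 and 169.8 FPKM in endothelium, against 0.95, 1.46 and 1.65 FPKM in stroma (log2 difference 7.59 ± 0.63, adjusted p = 0.000722). Edn1, which encodes the constrictor endothelin 1, had 167, 224 and 579 FPKM in endothelium, against 7.27, 1.16 and 0 FPKM in stroma (log2 difference 6.74 ± 0.84, adjusted p = 0.00337). Of its receptors, Ednrb had 182, 3162 and 5311 FPKM in endothelium, against 11.8, 1.44 and 1.74 FPKM in stroma (log2 difference 8.37 ± 1.35, adjusted p = 0.00845), and Ednra, the receptor of smooth muscle and pericytes, was listed at 0 in the 3 endothelial libraries, against 8.09, 196 and 185 FPKM in stroma (adjusted p = 0.0162). Endothelin 1 and its B receptor were thus in endothelium and its A receptor in stroma. Calcrl, the receptor of adrenomedullin, had 1387, 3180.0 and 4564 FPKM in endothelium, against 23.8, 71.7 and 45 FPKM in stroma (log2 difference 5.96 ± 0.56, adjusted p = 0.00106), and its partner Ramp2 had 2126, 1825 and 983 FPKM in endothelium, against 6.97, 8.3 and 19.8 FPKM in stroma (log2 difference 7.08 ± 0.45, adjusted p = 0.000255). Adm, the ligand, had 13.3, 71.7 and 4.49 FPKM in endothelium, against 493, 130.2 and 86.6 FPKM in stroma (log2 difference -3.32 ± 1.06, adjusted p = 0.0722), with no overlap between groups. Ptges and Ptgis, which make prostaglandin E2 and prostacyclin, were lower in endothelium. Ptges was listed at 0 in the 3 endothelial libraries, against 47, 83.5 and 45.7 FPKM in stroma (adjusted p = 0.000178), and Ptgis had 1.27, 0 and 0 FPKM in endothelium, against 10.5, 95.5 and 42.1 FPKM in stroma (log2 difference -4.79 ± 0.81, adjusted p = 0.01). Ednra missed the threshold without endothelial replicate 2 or 3 or stromal replicate 2 or 3 (adjusted p = 0.0522 to 0.0596). The 7 lower genes became 4 without stromal replicate 2.

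Of 17 tested genes of caveolae, fenestrae and lipid uptake 2 were higher and 3 lower (median 0.56). Plvap, which forms the diaphragms of fenestrae, had 54.5, 805 and 176 FPKM in endothelium, against 4.02, 9.52 and 11.1 FPKM in stroma (log2 difference 4.53 ± 0.95, adjusted p = 0.0212), highest in endothelial replicate 2. Lpl, the lipase that frees fatty acids at the vessel wall, had 0, 3.44 and 0.58 FPKM in endothelium, against 10.3, 522 and 279.8 FPKM in stroma (log2 difference -5.95 ± 1.46, adjusted p = 0.0343). Plvap missed the threshold without endothelial replicate 3 or any stromal library (adjusted p = 0.0528 to 0.0668). Lpl missed the threshold without any endothelial library or stromal replicate 2 or 3 (adjusted p = 0.0641 to 0.114). Angptl4, an inhibitor of that lipase, had 0, 7.04 and 0 FPKM in endothelium, against 98.5, 114 and 54.5 FPKM in stroma (log2 difference -5.42 ± 0.86, adjusted p = 0.00798).

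Matrix genes were grouped by the structure they build. Of 18 tested fibrillar and beaded collagens 11 were lower and 1 higher (median -4.53). Col1a1 had 2.1, 1.04 and 0.75 FPKM in endothelium, against 1322, 2458 and 1942 FPKM in stroma (log2 difference -9.70 ± 0.32, adjusted p = 4.17e-05). Col6a3, the large chain of beaded collagen VI, had 2.43, 11.1 and 0.36 FPKM in endothelium, against 659.5, 2839.9 and 2285 FPKM in stroma (log2 difference -8.72 ± 0.90, adjusted p = 0.00159). Col3a1, the collagen of loose tissue, had 0, 25.5 and 3.41 FPKM in endothelium, against 252, 1514 and 1399.8 FPKM in stroma (log2 difference -7.38 ± 1.28, adjusted p = 0.0109). Stromal replicate 1 was the lowest stromal library in each of these 3, though above every endothelial library. It was the lowest for 17 of 20 collagens (85%), against 38.1% of all genes. Col23a1, a transmembrane collagen, was the exception: it had 61.4, 103 and 35.9 FPKM in endothelium, against 0.27, 6.75 and 15.2 FPKM in stroma (log2 difference 3.52 ± 0.95, adjusted p = 0.0453). Col23a1 missed the threshold without any endothelial library or stromal replicate 2 (adjusted p = 0.0808 to 0.129). Pcolce, which speeds the trimming of procollagen, had 2.19, 5.57 and 2.66 FPKM in endothelium, against 1246, 2297 and 2339.7 FPKM in stroma (log2 difference -8.79 ± 0.37, adjusted p = 7.64e-05).

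Of 19 tested basement membrane genes 3 were higher and 1 lower (median 0.10), together the same share as over all genes tested (21.1%). Lama5, a laminin chain of vessels, had 376, 142 and 126 FPKM in endothelium, against 10.5, 33.8 and 33.2 FPKM in stroma (log2 difference 2.99 ± 0.59, adjusted p = 0.0174). Col15a1 had 1.41, 0 and 0 FPKM in endothelium, against 9.89, 1344 and 1439 FPKM in stroma (log2 difference -7.69 ± 1.89, adjusted p = 0.0341), with 9.89 FPKM in stromal replicate 1. Col15a1 missed the threshold without any endothelial library or stromal replicate 2 or 3 (adjusted p = 0.0704 to 0.113). The 3 higher genes became 1 without endothelial replicate 1 or 3 or stromal replicate 2 or 3, and the 1 lower gene 0 without endothelial replicate 1 or 2 or stromal replicate 2 or 3 and 4 without stromal replicate 1. Col4a1, a main collagen chain of basement membrane, had 1832, 1776 and 626 FPKM in endothelium, against 247, 2320.4 and 2279 FPKM in stroma (log2 difference 0.21 ± 0.96, adjusted p = 0.9), with stromal replicate 1 below every endothelial library and its partners above every one.

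Elastic fibre genes were called in both directions. Of 20 tested 2 were higher and 8 lower (median -2.63). Eln, which encodes elastin itself, had 210.0, 129 and 634 FPKM in endothelium, against 0.95, 1.15 and 2.34 FPKM in stroma (log2 difference 6.75 ± 0.60, adjusted p = 0.000875), and Fbln5, a fibulin that binds it, had 499, 762 and 1157 FPKM in endothelium, against 158, 99.9 and 83.8 FPKM in stroma (log2 difference 2.78 ± 0.38, adjusted p = 0.00446). Loxl1, an enzyme that crosslinks elastin, was listed at 0 in the 3 endothelial libraries, against 169.9, 557 and 521 FPKM in stroma (adjusted p = 0.000185). Efemp2, the fibulin 4 that guides crosslinking, had 12.5, 20.2 and 25.1 FPKM in endothelium, against 568, 967 and 1069 FPKM in stroma (log2 difference -5.42 ± 0.34, adjusted p = 0.000252). Elastin was at 2.34 FPKM or less in stroma, where Loxl1 and Efemp2 were highest.

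Small proteoglycans and matricellular proteins were lower in endothelium in 12 of 25 tested and higher in 0 (median -3.96). Vcan, the large proteoglycan versican, had 1.37, 2.41 and 1.62 FPKM in endothelium, against 319, 279 and 178 FPKM in stroma (log2 difference -6.51 ± 0.30, adjusted p = 9.24e-05). Thbs1, an inhibitor of angiogenesis that also activates TGF-beta, had 136, 260.4 and 94 FPKM in endothelium, against 4519, 3609 and 4016 FPKM in stroma (log2 difference -4.74 ± 0.39, adjusted p = 0.00068). Dcn, the small proteoglycan decorin, was listed at 0 in the 3 endothelial libraries, against 2.7, 23.3 and 41.1 FPKM in stroma (adjusted p = 0.0251). Dcn missed the threshold without any endothelial library or stromal replicate 2 or 3 (adjusted p = 0.0641 to 0.0946). Bgn, the related biglycan, had 143, 4612 and 31.8 FPKM in endothelium, against 4589, 12551 and 13001 FPKM in stroma (log2 difference -5.02 ± 1.73, adjusted p = 0.0887), with endothelial replicate 2 just above stromal replicate 1. Fn1, which encodes fibronectin, had 1260.3, 1605 and 606 FPKM in endothelium, against 2617, 23187 and 24517 FPKM in stroma (log2 difference -3.41 ± 0.96, adjusted p = 0.051), with no overlap and with stromal replicate 1 far below its partners.

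Of 25 tested proteases and inhibitors 5 were higher and 7 lower (median -1.37). Timp1, an inhibitor of metalloproteases, had 316, 393 and 123 FPKM in endothelium, against 3839, 6814 and 5175 FPKM in stroma (log2 difference -4.37 ± 0.49, adjusted p = 0.00221). Mmp15, a membrane metalloprotease, had 128, 58 and 76.6 FPKM in endothelium, against 0.65, 5.71 and 5.43 FPKM in stroma (log2 difference 4.34 ± 0.62, adjusted p = 0.00535). Adamts2, which trims procollagen, had 0.88, 2.24 and 0 FPKM in endothelium, against 22.7, 143 and 152 FPKM in stroma (log2 difference -5.46 ± 0.83, adjusted p = 0.00671). Mmp2, the gelatinase of fibroblasts, had 741, 39.4 and 151 FPKM in endothelium, against 63.3, 3309.9 and 3869.6 FPKM in stroma (log2 difference -2.50 ± 1.81, adjusted p = 0.375), with stromal replicate 1 below 2 of the 3 endothelial libraries. The 5 higher genes became 2 without stromal replicate 2 or 3 and 3 without endothelial replicate 1 or 2 or 3, and the 7 lower ones 4 without endothelial replicate 3 or stromal replicate 3 and 14 without stromal replicate 1. Of 17 tested integrin subunits 3 were higher and 4 lower (median 0.14). Itga2, part of a collagen receptor, had 61.6, 37.8 and 136 FPKM in endothelium, against 5.33, 2.52 and 3.85 FPKM in stroma (log2 difference 3.86 ± 0.50, adjusted p = 0.00385), while Itga11, part of another, was listed at 0 in the 3 endothelial libraries, against 3.05, 9.57 and 11.6 FPKM in stroma (adjusted p = 0.00833). Itgb4, the laminin-binding subunit of hemidesmosomes, had 799, 81.6 and 81.9 FPKM in endothelium, against 3.17, 1.52 and 1.59 FPKM in stroma (log2 difference 5.87 ± 0.90, adjusted p = 0.00709), and Itgb5, a partner of the alpha v subunit, had 3.31, 4.29 and 6.04 FPKM in endothelium, against 184, 278 and 270.2 FPKM in stroma (log2 difference -5.47 ± 0.28, adjusted p = 0.000137).

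Lineage genes of stroma came next. Of 16 tested genes of leptin receptor-positive stroma 6 were lower and 0 higher (median -1.52), yet Lepr itself was low: it had 3.13, 17.5 and 43.2 FPKM in endothelium, against 15.3, 0 and 0 FPKM in stroma (log2 difference 2.56 ± 1.35, adjusted p = 0.227). Stromal replicates 2 and 3 listed Lepr at 0. Of 11 tested osteoblast genes 6 were lower and 0 higher (median -3.08). Dmp1, a matrix protein of osteocytes, was listed at 0 in the 3 endothelial libraries, against 39.8, 495 and 761 FPKM in stroma (adjusted p = 0.00424), and Tnfrsf11b, the decoy receptor osteoprotegerin, was listed at 0 in the 3 endothelial libraries, against 76.4, 68.6 and 106 FPKM in stroma (adjusted p = 7.87e-05). Sost, the osteocyte inhibitor of Wnt signals, went the other way without passing the test: it had 1.16, 60.5 and 377 FPKM in endothelium, against a listing at 0 in the 3 stromal libraries (adjusted p = 0.0828).

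Of 16 tested adipocyte genes 5 were lower and 0 higher (median -1.95). Cebpa, an adipogenic factor, had 1.78, 1.59 and 0 FPKM in endothelium, against 26.5, 265 and 261 FPKM in stroma (log2 difference -6.01 ± 0.96, adjusted p = 0.00822). Agpat2, an enzyme of fat synthesis, had 17.2, 15.6 and 13.6 FPKM in endothelium, against 85, 93.8 and 70 FPKM in stroma (log2 difference -2.35 ± 0.20, adjusted p = 0.00082). Adipoq, the hormone adiponectin, was listed at 0 in the 3 endothelial libraries, against 1.6, 260.4 and 134 FPKM in stroma (adjusted p = 0.0628). Stromal replicate 1 was the lowest stromal library for 22 of 24 adipocyte genes (91.7%) and stromal replicate 2 the highest for 23 of 24 (95.8%), against 38.1% and 25.4% of all genes. The 5 lower genes became 3 without endothelial replicate 2 or 3 or stromal replicate 2 or 3 and 8 without stromal replicate 1. Of 7 tested cartilage genes 3 were lower and 0 higher (median -3.59). Col2a1, the collagen of cartilage, had 0.3, 0 and 0.29 FPKM in endothelium, against 258, 9.16 and 11.4 FPKM in stroma (log2 difference -4.75 ± 1.23, adjusted p = 0.0396). Col2a1 missed the threshold without any endothelial library or stromal replicate 2 or 3 (adjusted p = 0.0552 to 0.107). The 3 lower genes became 1 without endothelial replicate 2 or stromal replicate 2 or 3. Of 14 tested smooth muscle and pericyte genes 6 were lower and 1 higher (median -2.16). Cspg4, the pericyte proteoglycan NG2, was listed at 0 in the 3 endothelial libraries, against 59, 248 and 224 FPKM in stroma (adjusted p = 0.000591). Acta2, the smooth muscle actin, had 43.9, 571 and 274 FPKM in endothelium, against 1468, 926 and 866 FPKM in stroma (log2 difference -2.46 ± 0.90, adjusted p = 0.102), with no overlap between groups. The gene that was higher was Mcam, the adhesion molecule CD146 of endothelium and pericytes, which had 666, 1255 and 437 FPKM in endothelium, against 5.8, 17.2 and 12.6 FPKM in stroma (log2 difference 5.91 ± 0.50, adjusted p = 0.000755).

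Of 34 tested hypoxia and glycolysis genes 2 were higher (5.88%) and 5 lower (14.7%), beside 10.1% and 11.1% of all genes tested (median -0.60). Slc2a3, a glucose transporter, was listed at 0 in the 3 endothelial libraries, against 8.85, 39 and 28.2 FPKM in stroma (adjusted p = 0.00301). Hk2, the inducible hexokinase, had 0.89, 3.73 and 1.68 FPKM in endothelium, against 69.8, 52.8 and 37.1 FPKM in stroma (log2 difference -4.19 ± 0.43, adjusted p = 0.00151). Ddit4, an inhibitor of mTOR signaling, had 999.8, 939 and 2420.2 FPKM in endothelium, against 187, 81.7 and 69 FPKM in stroma (log2 difference 3.68 ± 0.51, adjusted p = 0.00495). The 5 lower genes became 3 without stromal replicate 1 or 2 or 3. Of 30 tested genes of sterol and fatty acid synthesis 9 were lower and 0 higher (median -1.29). Lss, lanosterol synthase, had 17, 10.6 and 3.28 FPKM in endothelium, against 118, 60.8 and 60.2 FPKM in stroma (log2 difference -2.996 ± 0.57, adjusted p = 0.0157). Scd1, the stearoyl desaturase, had 349, 42.7 and 76.5 FPKM in endothelium, against 623, 2552 and 1234 FPKM in stroma (log2 difference -3.57 ± 0.86, adjusted p = 0.0323). Lss missed the threshold without stromal replicate 2 (adjusted p = 0.0516). Scd1 missed the threshold without endothelial replicate 2 or 3 or stromal replicate 2 or 3 (adjusted p = 0.0865 to 0.108). The 9 lower sterol genes became 1 without stromal replicate 2, 3 without endothelial replicate 2 or 3 and 4 without stromal replicate 3. Endothelial replicate 3 was the lowest endothelial library for 25 of 29 of these genes (86.2%), against 43.6% of all genes. Of 40 DNA replication and mitosis genes 0 were higher and 1 was lower (2.5%), beside 10.1% and 11.1% of all genes tested (median 0.20). The lower gene was Cdkn2b, a cell cycle inhibitor, which had 33.7, 62.9 and 19.5 FPKM in endothelium, against 128, 132 and 129 FPKM in stroma (log2 difference -1.87 ± 0.40, adjusted p = 0.0224). Cdkn2b missed the threshold without endothelial replicate 1 or stromal replicate 2 or 3 (adjusted p = 0.0596 to 0.0831). Single libraries differed within this list. Endothelial replicate 1 was the highest of its group for 32 of the 40 genes (80%), against 45.7% of all genes. Endothelial replicate 3 was the lowest for 34 (85%), against 43.6%. Stromal replicate 1 was the highest of its group for 31 (77.5%), against 52.9%.

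Of 34 tested interferon and MHC class I genes 7 were higher and 2 lower (median 0.65). Bst2, the antiviral tetherin, had 1368, 1567 and 872 FPKM in endothelium, against 56.9, 201 and 188 FPKM in stroma (log2 difference 3.24 ± 0.53, adjusted p = 0.00856). Ifit2, an interferon-induced gene, had 11.9, 7.94 and 8.65 FPKM in endothelium, against 75.2, 41.9 and 39.1 FPKM in stroma (log2 difference -2.29 ± 0.32, adjusted p = 0.00518). Ifit2 and Nlrc5 were the 2 lower genes. The 7 higher genes became 2 without stromal replicate 2 or 3 and 3 without endothelial replicate 3.

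Akt1, named in all 6 titles, had 1599, 1079.8 and 2337 FPKM in endothelium, against 522, 698 and 637 FPKM in stroma (log2 difference 1.37 ± 0.33, adjusted p = 0.0328). The 3 endothelial libraries lay above the 3 stromal ones. Akt1 missed the threshold without endothelial replicate 1 or 3 or any stromal library (adjusted p = 0.0579 to 0.106). Of 28 tested genes of the Akt, mTOR and FoxO pathway 5 were higher and 4 lower (median -0.13). Akt2 had 19.2, 24.5 and 22.4 FPKM in endothelium, against 95.8, 129.8 and 119 FPKM in stroma (log2 difference -2.32 ± 0.20, adjusted p = 0.000755). Akt1 and Akt2 thus differed in direction. Pik3r3, a regulatory subunit of phosphoinositide 3-kinase, had 719, 635 and 889 FPKM in endothelium, against 30.5, 26.9 and 27.1 FPKM in stroma (log2 difference 4.67 ± 0.18, adjusted p = 5.84e-05). Inpp5d, a phosphatase that removes its product, had 165, 112 and 77.1 FPKM in endothelium, against 0.68, 0 and 0 FPKM in stroma (log2 difference 6.58 ± 0.39, adjusted p = 0.000198). Irs1, the adaptor of insulin and IGF1 receptors, had 0, 0.39 and 1.04 FPKM in endothelium, against 50.1, 52.2 and 45.8 FPKM in stroma (log2 difference -5.15 ± 0.33, adjusted p = 0.000272). Foxo1, a transcription factor that Akt keeps out of the nucleus, had 220.3, 85.9 and 188 FPKM in endothelium, against 36.2, 29.5 and 27 FPKM in stroma (log2 difference 2.28 ± 0.37, adjusted p = 0.00863).

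Markers of other cell types are given by how many were listed at 0 and by their summed level. Of 22 leukocyte and macrophage genes, 9 were listed at 0 in all 6 libraries, among them Ptprc, Tyrobp and Spi1. Of the 7 tested, 2 were higher (28.6%) and 2 lower (28.6%), beside 10.1% and 11.1% of all genes tested. Cd53 was among those called, and missed limma's threshold without endothelial replicate 1 or 3 or any stromal library (adjusted p = 0.0728 to 0.112). The levels of the 22 genes summed to between 121.0 and 225.1 FPKM in endothelium and between 50.7 and 145.1 FPKM in stroma. Much of the endothelial sum was Lcp1, an actin bundling protein, which had 100, 159 and 105 FPKM in endothelium, against 0.25, 0 and 0 FPKM in stroma (log2 difference 6.79 ± 0.29, adjusted p = 7.64e-05), and Cd68 had 49, 38.4 and 4.08 FPKM in endothelium, against 57.5, 5.86 and 7.59 FPKM in stroma (log2 difference 0.51 ± 1.15, adjusted p = 0.787). Of 15 erythroid and megakaryocyte genes 9 were listed at 0 in all 6 libraries, and the sums were 22.4 to 44.0 FPKM in endothelium and 8.07 to 27.2 FPKM in stroma. Pf4, a platelet chemokine, had 12.9, 25.2 and 3.17 FPKM in endothelium, against a listing at 0 in the 3 stromal libraries (adjusted p = 0.0153). Pf4 missed the threshold without stromal replicate 2 or 3 (adjusted p = 0.0555 to 0.0596). Of 19 epithelial, neural and skeletal muscle genes 11 were listed at 0 in all 6 libraries, with sums of 41.0 to 77.5 FPKM in endothelium and 138.2 to 185.2 FPKM in stroma. Krt18, an epithelial keratin, was listed in stromal replicate 1 alone, at 86.3 FPKM. The part of other cell types in the results was not tested.

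Single libraries are set against their partners with no test, since a single library has no replicate. Endothelial replicate 2 had the fewest genes at least 2 log2 units from both partners, 204, while replicate 1 had 329 and replicate 3 had 255. It is described for its arterial and sinusoidal genes. It stood furthest above both partners in Masp1, a complement protease, at 340.8 FPKM against 0.66 and 0.69 FPKM. Among the 10 genes furthest above were also Igfbp5, an IGF binding protein, at 1444 FPKM against 20.8 and 29.9 FPKM, and Gpr182, a receptor of sinusoidal and lymphatic endothelium, at 168.0 FPKM against 1.80 and 3.92 FPKM. Selp, the selectin of venules, stood at 296.1 FPKM against 1.60 and 9.63 FPKM. It stood furthest below both partners in Hey1, and then in Pcsk5, a convertase, at 6.72 FPKM against 337.5 and 162.4 FPKM, and in Stmn2, at 11.6 FPKM against 1398 and 256.8 FPKM. Gja4, Gja5, Sema3g and Cxcr4 were also among its 10 lowest genes. The mean log2(FPKM + 1) of the arterial list was 5.98 in endothelial replicate 2, against 8.38 and 8.24 in replicates 1 and 3, and that of the sinusoidal list 5.67, against 3.86 and 3.93.

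Stromal replicate 1 stood furthest above both partners in Gpr149, an orphan receptor, at 570.5 FPKM against 1.30 and 2.76 FPKM, and then in Esam. Pcolce2, a procollagen enhancer, stood at 839.7 FPKM against 8.52 and 10.8 FPKM. It stood furthest below both in Hp, the hemoglobin scavenger haptoglobin, at 1.01 FPKM against 622.6 and 285.1 FPKM, then in Col15a1, and in Cygb, a globin of fibroblasts and stellate cells, at 3.44 FPKM against 312.4 and 427.1 FPKM. Postn, the matricellular protein periostin, stood at 5.89 FPKM against 533.0 and 404.3 FPKM. The mean log2(FPKM + 1) of the hypoxia list was 8.03 in stromal replicate 1, against 6.61 and 6.31 in replicates 2 and 3, and that of the adipocyte list 3.21, against 6.09 and 5.44. Stromal replicate 1 was the highest stromal library for 30 of 34 hypoxia genes (88.2%), against 52.9% of all genes. Car9, a hypoxia-induced carbonic anhydrase, stood at 204.0 FPKM in it, against 2.52 and 2.05 FPKM, and Ldha, which makes lactate, at 6695 FPKM, against 1801 and 1482 FPKM. Without endothelial replicate 2 and stromal replicate 1 together, 3016 genes were called, of which 2084 were among the 2801. This pair was chosen after the data were seen, and endothelial replicate 2 had fewer genes apart (204) than replicates 1 (329) and 3 (255).

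**Figure D5:**
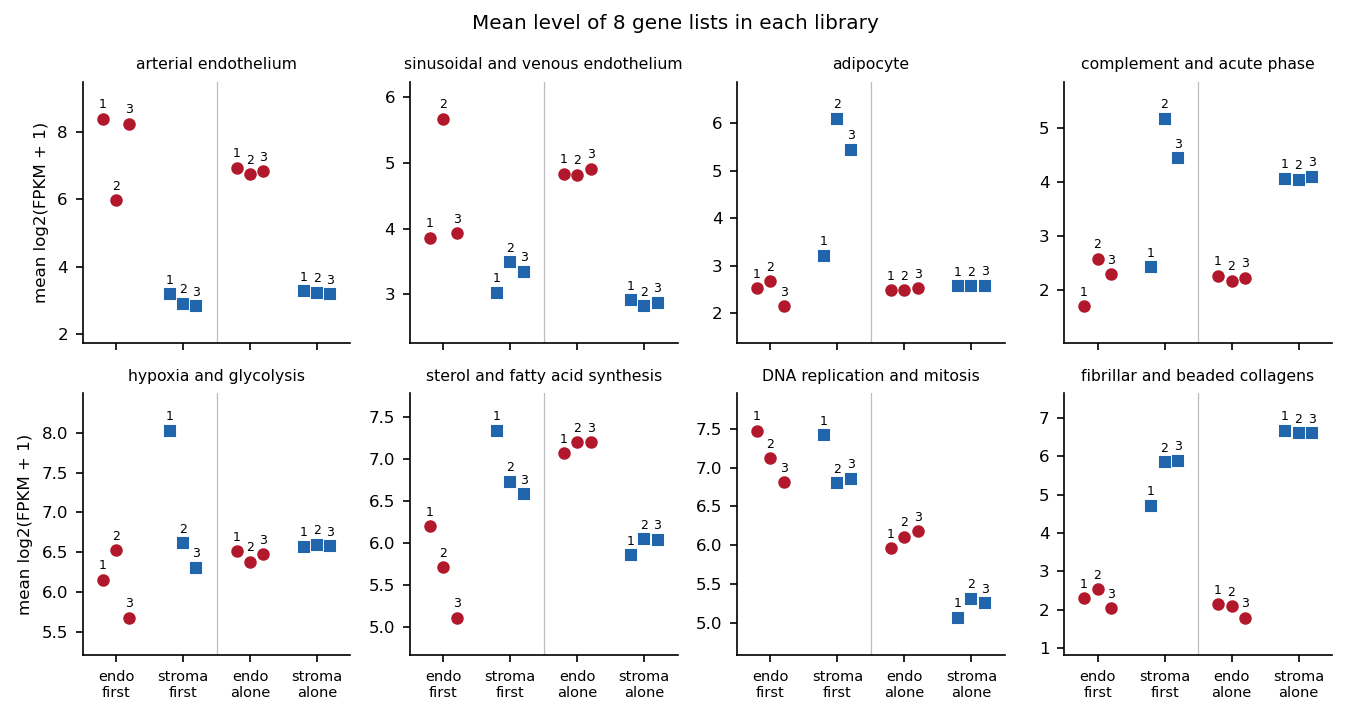
Mean log2(FPKM + 1) of 8 gene lists in each library, with the first cultures left of the line and the co-culture series alone right of it, circles for endothelium, squares for stroma and the replicate number above each point. Endothelial replicate 2 of the first culture is low in arterial and high in sinusoidal genes, stromal replicate 1 is high in hypoxia and low in adipocyte genes, and the 3 libraries of each co-culture group lie close together.

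The same 2 cell types kept alone in the co-culture series, with 3 libraries each and no library in common with the first cultures, were compared next. Of 12836 genes tested in both, 2626 were called in the first cultures and 11079 in the co-culture series alone, and 2321 were called in both in the same direction, which is 88.4% of the first and 20.9% of the second set. A further 180 were called in opposite directions. Most genes were called in the co-culture series alone, so the 88.4% is to be read beside 11079 called of 12836. The difference between endothelium and stroma itself differed between the 2 experiments for 3867 of 14071 genes in limma's interaction test (27.5%), more positive in the first cultures for 2175 (15.5%) and more negative for 1692 (12%). The split depended on scaling, and was 1901 and 2185 with trimmed-mean scaling. The test pooled the spread of the first cultures with that of the co-culture libraries, which lay close together. For Itm2a the SE of the difference was 1.25 in the first cultures and 0.0292 in the co-culture series alone. Interaction p-values can therefore be too small, and part of the spread may be technical. With a weight per group the count was 3461. Experiment and any other change between the 2 culture runs cannot be told apart.

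Matrix genes and a Wnt modulator were among the 6 genes most positive in the first cultures. Lum, the small proteoglycan lumican, was listed at 0 in all 6 first cultures and in co-culture series endothelium, against 695.9, 698.5 and 703.3 FPKM in co-culture series stroma (interaction adjusted p = 1.88e-09). Fmod, the related fibromodulin, was listed at 0 in first-culture endothelium and stood at 1.89, 0.96 and 1.08 FPKM in first-culture stroma, against 0 in co-culture series endothelium and 1061, 909.4 and 916.9 FPKM in its stroma. Sfrp2, a secreted Wnt modulator, had 20.1, 4.11 and 104.6 FPKM in first-culture endothelium and 0, 6.49 and 3.04 FPKM in first-culture stroma, against 0.69, 0.80 and 1.35 FPKM in co-culture series endothelium and 407.1, 413.9 and 403.3 FPKM in its stroma. In first-culture stroma these 3 genes were listed at 6.49 FPKM or less. Of 30 small proteoglycan genes tested there, 12 were more positive and 4 more negative, and of 31 Wnt genes 13 and 0. Over all genes tested the shares were 15.5% more positive and 12% more negative. Counts for the lists were made only with values as deposited, and the split over all genes depended on scaling.

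On the negative side, Thy1 stood at the levels given above in the first cultures, and was listed at 0 in co-culture series endothelium and at 1.08, 1.04 and 1.90 FPKM in its stroma (interaction adjusted p = 0.000349). Pde2a, a phosphodiesterase, had 15.8, 170.2 and 14.5 FPKM in first-culture endothelium and 6.2, 101.6 and 75.6 FPKM in first-culture stroma, against 577.8, 499.4 and 541.8 FPKM in co-culture series endothelium and 0 in its stroma. No difference between the cell types was detectable in the first cultures (log2 difference -0.12 ± 1.33 SE, adjusted p = 0.963). Of 30 sterol and fatty acid synthesis genes 24 were more negative and 0 more positive (median -2.40), and of 26 endothelial surface genes 12 were more negative and 1 more positive. These counts stand beside 12% more negative and 15.5% more positive of all genes tested, with the same limit of scaling.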

How the data were processed

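PolyA RNA was extracted with Trizol and sequenced as paired ends from TruSeq libraries, per the labels' protocols. The submitters' processing notes name TopHat, Cufflinks and the mm9 genome, without versions. The authors deposited 1 table of FPKM per library, to 2 decimals, for 23879 genes. FPKM carry no read counts, so depth is unknown, no interval from counts can be given and the precision rests on 3 libraries per group. Groups were taken from the titles.

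Values were used as deposited on the log2(FPKM + 1) scale. Genes with at least 1 FPKM in at least 3 libraries were tested with limma 3.58.1 in R 4.3.3 (trended empirical Bayes, two-sided, Benjamini-Hochberg adjustment over all genes tested), on 6 libraries for the cell types and 12 for the interaction. An earlier fit of these data shared the spread with in vivo libraries and called 5765 genes. A library was called apart for a gene at least 2 log2 units from both others of its group. The scripts were tested on simulated data. Alternatives were other pseudocounts, filters, scalings, weights and terms, and fits without single libraries.

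The members and the gene lists were chosen with earlier results of these data known. The rule for named genes took Akt1, Xist and Y-linked genes (the last are not printed), the 12 largest rises and falls that do not overlap and reach a mean of 5 FPKM, up to 5 called members of each list by size, the 6 largest interactions in each direction, the 10 genes furthest apart on each side in endothelial replicate 2 and stromal replicate 1, and other list members used to describe a list. Promoters came from RefSeq (GRCm38.p6), a build other than that of the files, and were matched by symbol. Some genes that the rule or the lists cover are not reported here.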

Additional observations from a re-analysis of the deposited data

Results flagged for a closer look

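The difference between endothelium and stroma differed between the first cultures and the co-culture series alone for 3867 genes by limma's interaction test, and the 6 largest in each direction are given. As differences of log2(FPKM + 1) differences they were 10.58 for Sfrp2, 9.92 for Abi3bp and 8.54 for Megf6, in which the first cultures were more positive, and -9.23 for Col15a1 and -8.12 for Ifi27l2a, in which they were more negative. The other 7 were listed at 0 throughout at least 1 group, so that no size is given. Their interaction adjusted p was 1.88e-09 for Lum, 0.00148 for Itm2a and 1.33e-08 for Fmod, more positive in the first cultures, and 3.54e-05 for Rem1, 0.00168 for Pde2a, 0.000235 for Cldn15 and 0.000349 for Thy1, more negative. The limit given above for interaction p-values holds for these too. Megf6, a secreted or membrane protein with EGF repeats, had 163.9, 271.0 and 245.8 FPKM in first-culture endothelium and 0.37, 0 and 0 FPKM in first-culture stroma, against 69.0, 70.0 and 64.7 FPKM in co-culture series endothelium and 140.0, 125.1 and 115.3 FPKM in its stroma. Rem1, a small GTPase, was listed at 0 in first-culture endothelium and had 12.3, 67.9 and 90.9 FPKM in first-culture stroma, against 12.97, 12.37 and 13.38 FPKM in co-culture series endothelium and 0 in its stroma. For both genes the cell type that held more differed between the experiments.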

How the results depend on the processing

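Of 13259 genes tested, 2801 were called between endothelium and stroma. The count was 6719 with a weight per library, 5765 with 12 and 8124 with all 24 libraries in the fit, 403 within libraries with Xist and 0 within those without (limma, 1973 at an unadjusted p under 0.05), where few libraries were left. Leaving out 1 library gave 1199 to 3724. Pseudocounts, filters, trimmed-mean or quantile scaling, a 2-fold minimum, an Xist term and the fit without endothelial replicate 2 and stromal replicate 1 together, which was chosen after seeing the data, kept it within 1.5 times. For the interaction the count of 3867 became 6069 with a weight per library, 5905 without stromal replicate 1 and 6838 without these 2 libraries, and 3068 to 5905 over single leave-outs. Trimmed-mean scaling gave 1901 more positive and 2185 more negative genes, and quantile normalization 2160 and 1926, against 2175 and 1692. Genes apart in stromal replicate 1 numbered 2149 at a distance of 1 log2 unit, against 718 at 2. With the replicate number as a block the counts were 2252 and 3376. Same-numbered libraries deviated together with r of 0.11, 0.06 and 0.08 for numbers 1, 2 and 3, and endothelial replicate 2 correlated best with stromal replicate 3 (0.07), so the numbers were not taken as a pairing. Of 244 named genes, the block ended 15 calls, an Xist term 20, the fit without these 2 libraries 22, the pseudocount of 0.1 9 and single leave-outs 15 to 60. Only genes that had missed the test changed sign: Col4a1, Cd68, Cxcl12 and Mmp2. Col4a1 was -0.66 with a weight per library, and -0.05, -0.03 and -0.86 without endothelial replicate 1 or 2 or stromal replicate 1. It was -1.11 within libraries with Xist and -1.10 without these 2 libraries. Its highest values were 1.27 within libraries without Xist and 0.75 without stromal replicate 2. Cd68 was -0.10 without endothelial replicate 1 and -0.06 without stromal replicate 2. It rose to 1.56 without endothelial replicate 3 and to 1.915 with a weight per library, where it passed limma's test (adjusted p = 0.0478). Cxcl12 was -0.52 with a weight per library, and 1.60 without these 2 libraries (limma adjusted p = 0.0355). Mmp2 was 0.69 within libraries without Xist, and -5.14 with a weight per library (limma adjusted p = 0.00551). The causes of these changes were not tested. Depth is unknown, so its limits could not be given.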
